A study of Canis lupus familiaris with 5 samples.

Results

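Of the 32220 dog gene models in the count table, 42 lay on chromosome 35, had a single exon and were 300 to 450 bp long. This is the size of the replication-dependent H2A, H2B, H3 and H4 histone genes that mammals carry in a cluster. The 42 models were chosen by a rule on position, exon number and length alone. No expression value entered that rule, but earlier results of these data were known when the models were chosen. Chromosome 35 held 384 models in all. The models are numbered here from 1 to 42 along CanFam3.1 chromosome 35, because the table identifies genes by Ensembl dog IDs and does not pair them with names. Which histone, if any, each model encodes was therefore not determined.

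Histones are the small basic proteins around which nuclear DNA is wound. Cells that replicate their DNA make most of their H2A, H2B, H3, H4 and linker H1 histones from short genes without introns that stand close together, often with an H2A gene and an H2B gene pointing away from each other across a shared promoter. Their transcripts rise in S phase and usually end in a stem-loop instead of a poly(A) tail, so the way a library selects RNA affects how many of them are read. The molecule is labelled total RNA and the method is called mRNA sequencing, with the selection step not given in the sources used here. Its part in the levels was not tested.

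All cells came from 1 adult dog (K9). The iPSC group held 3 induced pluripotent stem cell clones (clone 1 at passage 9, clones 2 and 3 at passage 8), which arose from primary colonies after a change to embryonic stem cell medium (ESM). The iNSLC group held 1 library at passage 2 of induced neural stem cell-like cells, the primary colonies that ear skin fibroblasts formed in the induction medium NSM after transfection with the episomal reprogramming vector set EP-B. The fibroblast group held 1 library at passage 1. The titles give the iNSLC library and iPSC clone 1 the same number. The labels do not state whether clone 1 came from those colonies. Passage and medium changed with the group, and vector reads in the iNSLC library and feeder cells in the iNSLC or iPSC libraries were not checked. Marker genes of these cell types were not checked, as the IDs have no names.

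The libraries held 29564180, 20021139 and 34317091 counts in iPSC clones 1 to 3, 11699186 in iNSLCs and 33280017 in fibroblasts, so that a floor of 3 counts stood between 0.0874 and 0.256 CPM (counts scaled to a library total of 1000000). Even numbers made up 59.6% to 61.6% of the counts from 1 to 10 in the iPSC clones, 74.0% in iNSLCs and 64.0% in fibroblasts. Over the 42 models the share was 67.8%. Counting both mates of a read pair gives an excess of even counts. Whether this was done is not stated, and the results with halved counts are given with the alternatives.

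The 42 models formed a compact group. From 23677318 to 25061935, a stretch of 1.38 Mb, 38 of them followed each other with gaps of less than 1 Mb, and the other 4 (models 1 to 4) lay upstream and apart. Lengths repeated exactly between models. There were 9 models of 312 bp, 9 of 393 bp, 7 of 381 bp, 4 of 408 bp and 3 of 378 bp, which left 10 of other lengths. In 40 of the 42 models the length was a multiple of 3, so that these lengths are best read as coding lengths without UTRs. There were 19 models on the plus strand and 23 on the minus strand, and 6 pairs pointed away from each other with 281 to 399 bases between them. In another dog assembly (UU_Cfam_GSD_1.0), for which RefSeq symbols were at hand, chromosome 35 carried 35 core histone symbols (12 of H2A, 12 of H2B, 4 of H3 and 7 of H4) and 6 of H1. No model could be matched to a symbol of that assembly. Model 33 shared exon bases with another gene model, and models 20 to 22 lay inside the span of another model without sharing exon bases. Reads of overlapping models cannot be told apart where strand was not used, and the strand setting is not stated.

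The length limits cut off few models, but some of these were abundant. With limits of 250 to 500 bp, 4 models reached 10 CPM in iNSLCs or fibroblasts, against 2 with the limits used. The summed level in iNSLCs was then 2.69 times that in fibroblasts, against 3.30 times. The model just under the lower limit (291 bp) had 1, 4 and 2 counts in the iPSC clones, 8 in iNSLCs and 2 in fibroblasts, and the shortest inside it (302 bp, model 17) had 12, 0 and 4 in the clones and 0 in both other libraries. The longest inside (450 bp, model 33) had 0 counts in every library, and the next longer (477 bp) had 1, 0 and 6 counts in the clones and 0 in the other libraries. Histone genes of a class are near-identical copies. Reads that fit several copies can be split or dropped depending on the multi-mapping setting, which the sources do not state, so the level of each single model is uncertain to that extent.

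Most of the 42 models were read at low levels. At least 1 count was found for 32, 31 and 34 models in the iPSC clones, 27 in iNSLCs and 24 in fibroblasts. A common floor was taken from the shallowest library (0.256 CPM of the library total, without TMM scaling). At this floor the numbers were 19, 25 and 22 in the clones, 19 in iNSLCs and 9 in fibroblasts. The other levels in this paragraph are TMM-scaled. At least 1 CPM was reached by 4, 8 and 5 models in the clones, 8 in iNSLCs and 4 in fibroblasts. A level of 10 CPM was passed by 2 models in iNSLCs and by 0 in the other 4 libraries. Per kb of model length, the median over the 42 models was 0.709 CPM per kb (mean of the 5 libraries). Among the 26 models that passed the filter on low counts it was 1.56 CPM per kb, against 6.57 CPM per kb over all 17479 genes tested, and 23 of the 26 lay below that value. The highest, model 18, reached 14.4 CPM per kb.

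**Figure D1:**
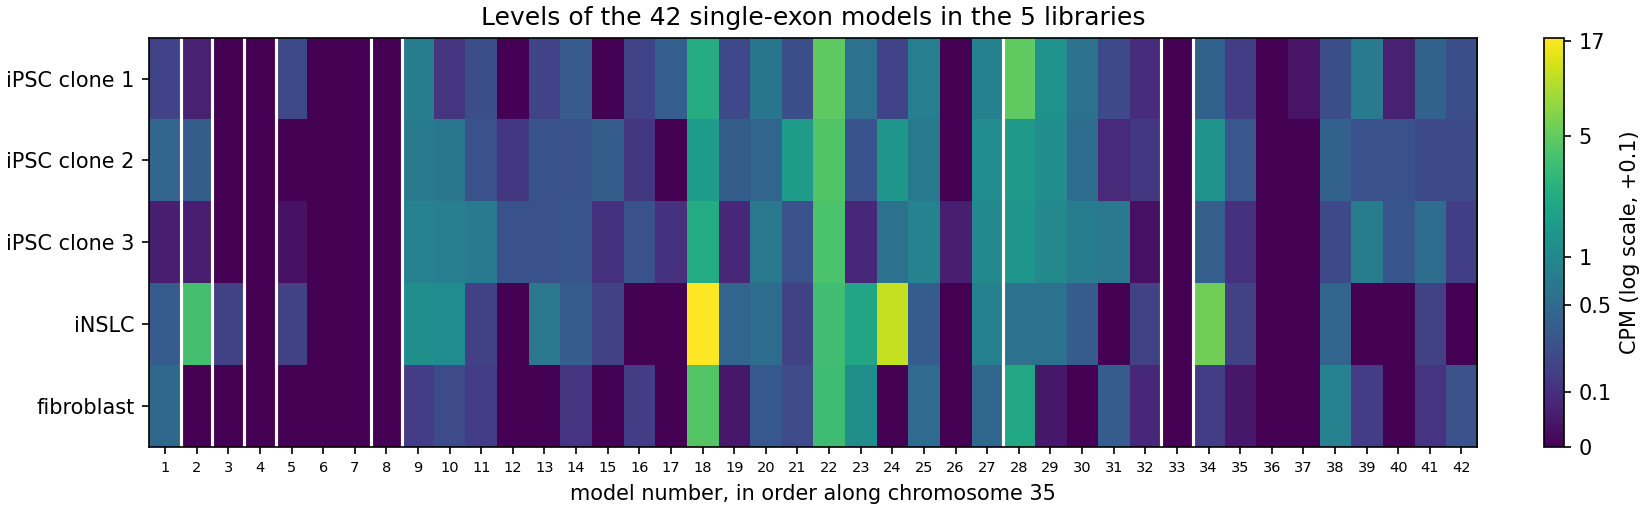
Level of each of the 42 models (columns, numbered along chromosome 35) in each of the 5 libraries (rows), as CPM on a log color scale with 0.1 added. White lines mark gaps of more than 100 kb between neighbours. Models 18 (17.6 CPM), 24 (11.2 CPM), 34 (5.67 CPM) and 2 (3.75 CPM) stand out in the iNSLC row, and model 22 is at 3.47 to 4.79 CPM in all rows.

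The 10 models of highest level per kb (models 18, 22, 24, 28, 34, 27, 2, 29, 23 and 10) held 74.5% of the summed CPM of the 42. Model 18 (393 bp) had 2.38, 1.60 and 2.32 CPM in the iPSC clones, 17.6 CPM in iNSLCs and 4.37 CPM in fibroblasts. Its clones all lay below both other libraries. Model 22 (381 bp) had 4.79, 4.23 and 3.97 CPM in the clones, 3.49 CPM in iNSLCs and 3.47 CPM in fibroblasts. This was the most even of the 10, with the clones above the other libraries by a small margin (edgeR quasi-likelihood test, Benjamini-Hochberg adjusted p = 0.684 against fibroblasts and 0.728 against iNSLCs).

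Model 24 (381 bp) had 0.186, 1.42 and 0.594 CPM in the iPSC clones, 11.2 CPM (128 counts) in iNSLCs and 0 counts in fibroblasts. Model 34 (393 bp) had 0.402, 1.29 and 0.378 CPM in the clones, 5.67 CPM in iNSLCs and 0.156 CPM (4 counts) in fibroblasts. Model 2 (378 bp), which lies outside the group, had 0.0618, 0.356 and 0.0540 CPM in the clones, 3.75 CPM (43 counts) in iNSLCs and 0 counts in fibroblasts. In all 3 of these models iNSLCs stood highest and clone 2 was the highest of the clones.

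Model 28 (381 bp) had 4.95, 1.51 and 1.43 CPM in the iPSC clones, 0.611 CPM in iNSLCs and 2.07 CPM in fibroblasts. Clone 1 alone lay above the fibroblasts. Model 29 (393 bp), its divergent neighbour across 363 bases, had 1.30, 1.16 and 1.05 CPM in the clones, 0.611 CPM in iNSLCs and 0.0390 CPM (1 count) in fibroblasts, so the clones did not overlap either library. Model 27 (312 bp) had 0.866, 1.11 and 1.08 CPM in the clones, 0.872 CPM in iNSLCs and 0.469 CPM in fibroblasts. Here the clones lay above fibroblasts and on both sides of iNSLCs. Model 23 (402 bp) had 0.588, 0.267 and 0.0810 CPM in the clones, 2.01 CPM in iNSLCs and 1.21 CPM in fibroblasts, and model 10 (312 bp) had 0.124, 0.668 and 0.810 CPM in the clones, 1.13 CPM in iNSLCs and 0.234 CPM in fibroblasts. The clones were below iNSLCs in both of these models, and they were below fibroblasts in model 23 but overlapped them in model 10.

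**Figure D2:**
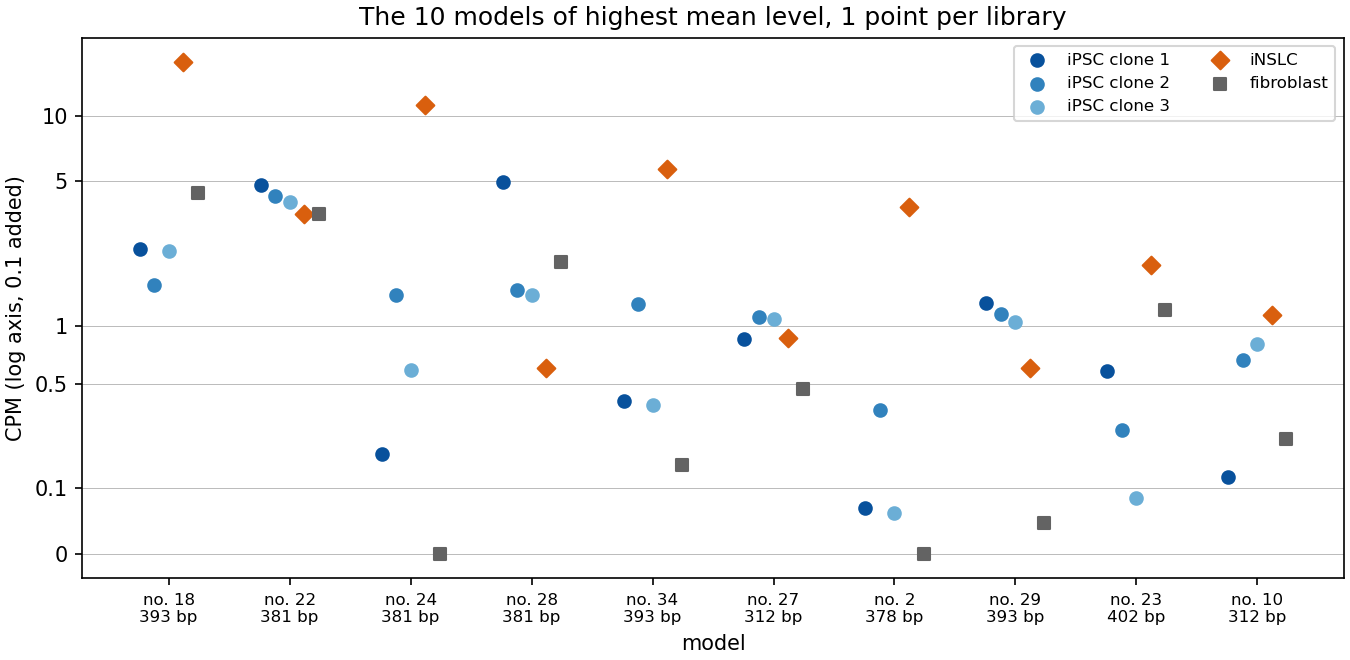
CPM of the 10 models of highest mean level per kb in each library (log axis, 0.1 added), from the highest at the left, with blue circles for the 3 iPSC clones, orange diamonds for iNSLCs and grey squares for fibroblasts. The iNSLC point is the highest in models 18, 24, 34, 2, 23 and 10, and models 24 and 2 have 0 counts in fibroblasts.

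The iPSC clones were close in some models and far apart in others. In the 17 models with at least 30 counts summed over the clones, the highest clone exceeded the lowest by 1.18-fold to 7.68-fold (median 2.43-fold). In 7 of the 17 the clones stayed within 1.5-fold, and in 4 (models 10, 21, 24 and 31) they were more than 5-fold apart. Over the 26 tested models the highest clone was clone 1 in 7, clone 2 in 9 and clone 3 in 10.

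Summed over the 42 models, the counts were 740, 491 and 755 in the iPSC clones, 608 in iNSLCs and 412 in fibroblasts. Relative to the library totals these were 25.0 CPM (95% Clopper-Pearson interval 23.3 to 26.9), 24.5 CPM (22.4 to 26.8) and 22.0 CPM (20.5 to 23.6) in the clones. In iNSLCs they were 52.0 CPM (47.9 to 56.3), and in fibroblasts 12.4 CPM (11.2 to 13.6). These intervals cover counting error only and, like those of ratios, would be too narrow if both mates of a pair were counted. After TMM scaling the sum was 22.9, 21.9 and 20.4 CPM in the clones (21.7 ± 1.25 CPM, SD, n = 3), 53.0 CPM in iNSLCs and 16.1 CPM in fibroblasts. The sum in the clones was thus 0.409 times that in iNSLCs and 1.35 times that in fibroblasts, and iNSLCs held 3.30 times the fibroblast sum (counting interval 2.90 to 3.75). In bulk libraries, fewer cells that make these transcripts and less RNA per cell cannot be told apart.

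Much of the iNSLC sum came from few models. Models 18, 24, 34 and 2, chosen after their values were seen as those with the highest iNSLC counts, held 438 of the 608 iNSLC counts (72.0%, 68.3% to 75.6%). They held 13.2%, 21.4% and 16.4% in the iPSC clones and 28.2% in fibroblasts. Without these 4 models the sum in the clones was 1.22 times that in iNSLCs and 1.56 times that in fibroblasts, and iNSLCs held 1.28 times the fibroblast sum (1.06 to 1.55). As the 4 were picked for their iNSLC counts, a lower iNSLC sum without them follows from the choice, and these values are a description.

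**Figure D3:**
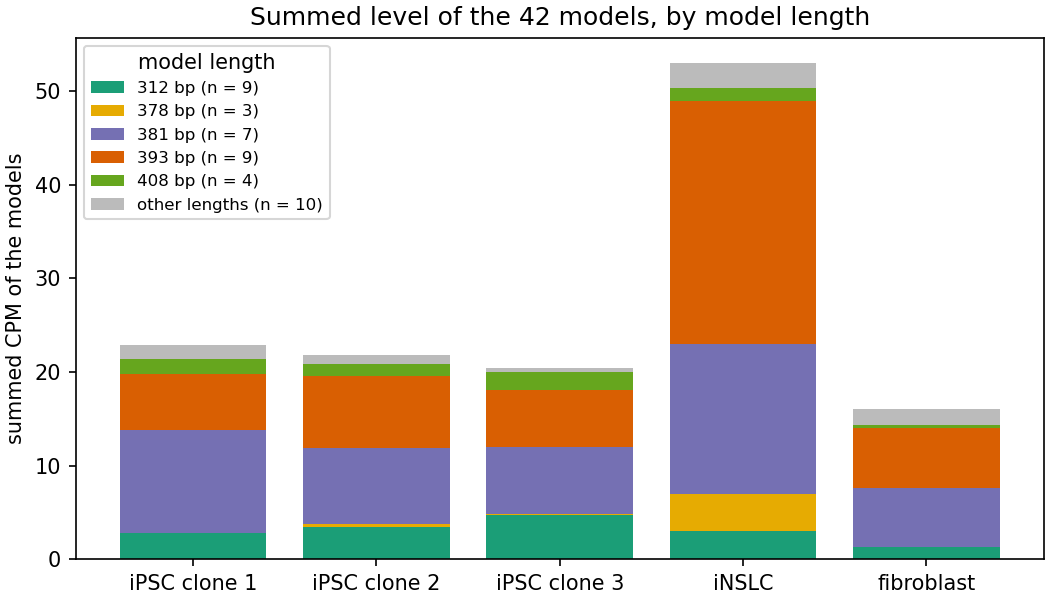
Summed CPM of the 42 models in each library, with bars stacked by model length from 312 bp at the bottom to other lengths at the top. The sum is 20.4 to 22.9 CPM in the iPSC clones, 53.0 CPM in iNSLCs and 16.1 CPM in fibroblasts, and models of 393 bp make up 25.9 CPM of the iNSLC bar.

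The length classes differed in how the libraries ranked. The 9 models of 393 bp summed to 6.0, 7.66 and 6.05 CPM in the iPSC clones, 25.9 CPM in iNSLCs and 6.32 CPM in fibroblasts. Their clones lay on both sides of the fibroblast sum, and model 18 gave 17.6 of the 25.9 CPM in iNSLCs. Without it the sum was 3.62 to 6.05 CPM in the clones, 8.29 CPM in iNSLCs and 1.95 CPM in fibroblasts. The 7 models of 381 bp summed to 10.9, 8.10 and 7.21 CPM in the clones, 16.1 CPM in iNSLCs and 6.32 CPM in fibroblasts. Model 24 gave 11.2 of the 16.1 CPM, and without it the sum was 10.8, 6.68 and 6.62 CPM in the clones, 4.88 CPM in iNSLCs and 6.32 CPM in fibroblasts, with iNSLCs lowest. The 3 of 378 bp summed to 0.0618, 0.356 and 0.108 CPM in the clones, 3.93 CPM in iNSLCs, nearly all from model 2, and 0 counts in fibroblasts.

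In the other shared lengths iNSLCs lay within the range of the clones. The 9 models of 312 bp summed to 2.75, 3.43 and 4.67 CPM in the iPSC clones, 3.05 CPM in iNSLCs and 1.33 CPM in fibroblasts, with a mean in the clones 2.73 times that of fibroblasts. The 4 models of 408 bp summed to 1.61, 1.29 and 1.97 CPM in the clones, 1.40 CPM in iNSLCs and 0.390 CPM in fibroblasts, 4.16 times the fibroblast sum in the clones. In both classes the clones all exceeded fibroblasts. The 10 models of other lengths summed to 1.52, 1.02 and 0.378 CPM in the clones, 2.70 CPM in iNSLCs and 1.72 CPM in fibroblasts.

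Along the chromosome the models split into stretches separated by more than 100 kb, a division added after the data were seen. The longest stretch ran from 23977201 to 24194648 with 19 models (9 to 27). It summed to 13.0, 14.6 and 13.8 CPM in the iPSC clones, 40.4 CPM in iNSLCs and 11.4 CPM in fibroblasts. The 9 models from 25000401 to 25061935 (34 to 42) summed to 2.29, 2.98 and 2.49 CPM in the clones, 6.45 CPM in iNSLCs and 1.64 CPM in fibroblasts. Both stretches had iNSLCs highest and fibroblasts lowest. In the first this order was the same without model 18 (10.6 to 13.0 CPM in the clones, 22.8 CPM in iNSLCs and 7.07 CPM in fibroblasts). For the other it rested on model 34, without which the sum was 1.89, 1.69 and 2.11 CPM in the clones, 0.785 CPM in iNSLCs and 1.48 CPM in fibroblasts, with iNSLCs lowest. The sums without 1 model, here and by length, were added after the data were seen.

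The 5 models from 24543339 to 24558879 (28 to 32) summed to 7.14, 3.43 and 3.97 CPM in the iPSC clones, 1.74 CPM in iNSLCs and 2.54 CPM in fibroblasts, so that iNSLCs were lowest and the clones highest. Without model 28 the sum was 1.91 to 2.54 CPM in the clones, 1.13 CPM in iNSLCs and 0.469 CPM in fibroblasts, and fibroblasts were lowest. Of 6 divergent pairs, models 28 and 29 of this stretch formed the only pair with at least 10 counts for each partner in a library, and their levels did not run in parallel. Model 28 was at 2.07 CPM in fibroblasts while model 29 had 1 count there. In the next pair by level, models 25 and 26, model 25 had 0.835, 0.712 and 0.892 CPM in the clones, 0.349 CPM in iNSLCs and 0.508 CPM in fibroblasts, while model 26 was read only in clone 3, with 2 counts.

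The first test compared iPSCs with the fibroblasts they came from. Of the 26 models tested, 2 were called higher in iPSCs and 0 lower (edgeR quasi-likelihood test, Benjamini-Hochberg adjusted p under 0.05 over all genes tested), against 28.0% called among all 17479 genes, 13.7% higher and 14.3% lower. Scaled by TMM, as here, all genes split into 2387 higher and 2508 lower calls, and scaled by library size alone into 3861 higher and 1810 lower. The share of models called, 2 of 26, was thus below that of all genes. In level per kb, 23 of the 26 also lay below the median of all genes tested. Whether low counts limited the calls was not tested. Both tests of iPSCs use the same 3 clones, whose spread is the only replicate error. The 26 are the models that passed the filter, which a high level in a single library was enough to pass, so counts over them are a description. At an unadjusted p under 0.05 there were 5 models higher and 0 lower, against 43.6% of all genes in either direction. Lower calls also numbered 0 with DESeq2 and with limma-voom.

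The called models were consecutive in the numbering and lay in the stretch from 24543339 to 24558879. Model 29 (ENSCAFG00000030507, chromosome 35, 24544083 to 24544475, plus strand) had 42, 26 and 39 counts in the iPSC clones, 7 in iNSLCs and 1 in fibroblasts. Its mean level in the clones, 1.17 ± 0.123 CPM (SD, n = 3), was 30.0 times that of fibroblasts, with a counting interval of 5.38 to 1184 for the single fibroblast count. In edgeR the log2 fold change was 4.74 ± 1.14 (standard error) at an adjusted p of 0.0284. Model 30 (ENSCAFG00000029986, chromosome 35, 24556015 to 24556326, plus strand) had 19, 12 and 29 counts in the clones, 4 in iNSLCs and 0 in fibroblasts. At 0.635 ± 0.131 CPM (SD, n = 3), its clones were 5.42-fold higher than fibroblasts set to the floor of 3 counts (edgeR adjusted p = 0.0334). The exact interval of the fibroblast count alone, with the clone mean held fixed, puts the ratio at 4.41 or more. Both models were above fibroblasts in 3 of 3 clones.

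Both calls were lost when clone 1 or clone 3 was left out. Without clone 1 the adjusted p was 0.0713 for model 29 and 0.0699 for model 30, and the called model was model 24 instead. Without clone 3 it was 0.0724 for model 29 and 0.0852 for model 30, so that 0 models were called and 2 had an unadjusted p under 0.05. Calls over all genes fell as well, from 4895 to 3896 without clone 1 and to 2779 without clone 3. Fewer models were then tested, 23 without clone 1 and 21 without clone 3.

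In most tested models the fitted fold change was above 0. This held for 21 of 26, against 56.6% of all genes tested, and the median log2 fold change was 1.49, against 0.27 over all genes. In 5 of the 26 the fibroblast library had 0 counts, and with these at their bound the median was 1.14. All clones lay above fibroblasts in 18 models, against 44.3% of all genes, and below them in 4, against 35.9%. The 4 were models 1, 18, 23 and 38. Model 18, the most abundant, had a log2 fold change of -1.05 ± 0.517 (standard error, edgeR adjusted p = 0.171), and model 38 (393 bp) had 0.247, 0.401 and 0.216 CPM in the clones and 0.898 CPM in fibroblasts. Model 24 had a fitted value of 7.23 ± 2.35 (standard error) and missed the threshold (edgeR adjusted p = 0.0665). Scaled by library size alone, the median over all genes was 0.78 and that of the models 1.99.

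The second test compared iPSCs with iNSLCs. Of the 26 models, 0 were called higher and 2 lower in iPSCs (edgeR quasi-likelihood test), against 11.2% called among all genes, 3.51% higher and 7.71% lower. At an unadjusted p under 0.05 there were 1 model higher and 5 lower, against 31.2% of all genes in either direction. Higher calls also numbered 0 with DESeq2 and with limma-voom. The share of models lower in iPSCs, 2 of 26, was close to that of all genes.

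Model 18 (ENSCAFG00000031860, chromosome 35, 24067113 to 24067505, plus strand) had 77, 36 and 86 counts in the iPSC clones and 202 in iNSLCs. Its level in the clones, 2.10 ± 0.434 CPM (SD, n = 3), was 0.119 times that of iNSLCs, and the log2 fold change was -3.06 ± 0.492 (standard error, edgeR adjusted p = 0.0196). Model 2 (ENSCAFG00000030034, chromosome 35, 8285713 to 8286090, plus strand) had 2, 8 and 2 counts in the clones and 43 in iNSLCs. The log2 fold change was -4.63 ± 1.09 (standard error, edgeR adjusted p = 0.0488). All 3 clones were below iNSLCs in both models. Model 2 lost its call without clone 1 (edgeR adjusted p = 0.0719) and when scaled by library size alone (edgeR adjusted p = 0.0559). Without clone 3 the adjusted p was 0.0880 for model 18 and 0.147 for model 2, but then 0 of all genes tested were called either, with 4863 at an unadjusted p under 0.05.

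Models 24 and 34 had negative values that missed the threshold. The log2 fold change was -3.94 ± 0.952 (standard error, edgeR adjusted p = 0.0516) in model 24 and -3.05 ± 0.851 (edgeR adjusted p = 0.0718) in model 34. Both were called by DESeq2 and by limma-voom, which each called 4 models. Values were above 0 in 14 of the 26 models, against 56.1% of all genes. The median log2 fold change was 0.15, against 0.20 over all genes. It was -0.06 with iNSLCs at the floor of 3 counts in the 3 models with 0 iNSLC counts. All clones were above iNSLCs in 10 models, against 41.8% of all genes, and below them in 11, against 34.3%, with overlap in 5. The model higher in iPSCs at an unadjusted p under 0.05 was model 39 (408 bp, edgeR adjusted p = 0.126). It had 0.742, 0.267 and 0.783 CPM in the clones and 0 counts in iNSLCs. The clone mean was at least 2.28-fold higher than the floor of 3 counts. The exact interval of the iNSLC count alone puts this ratio at 1.86 or more.

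**Figure D4:**
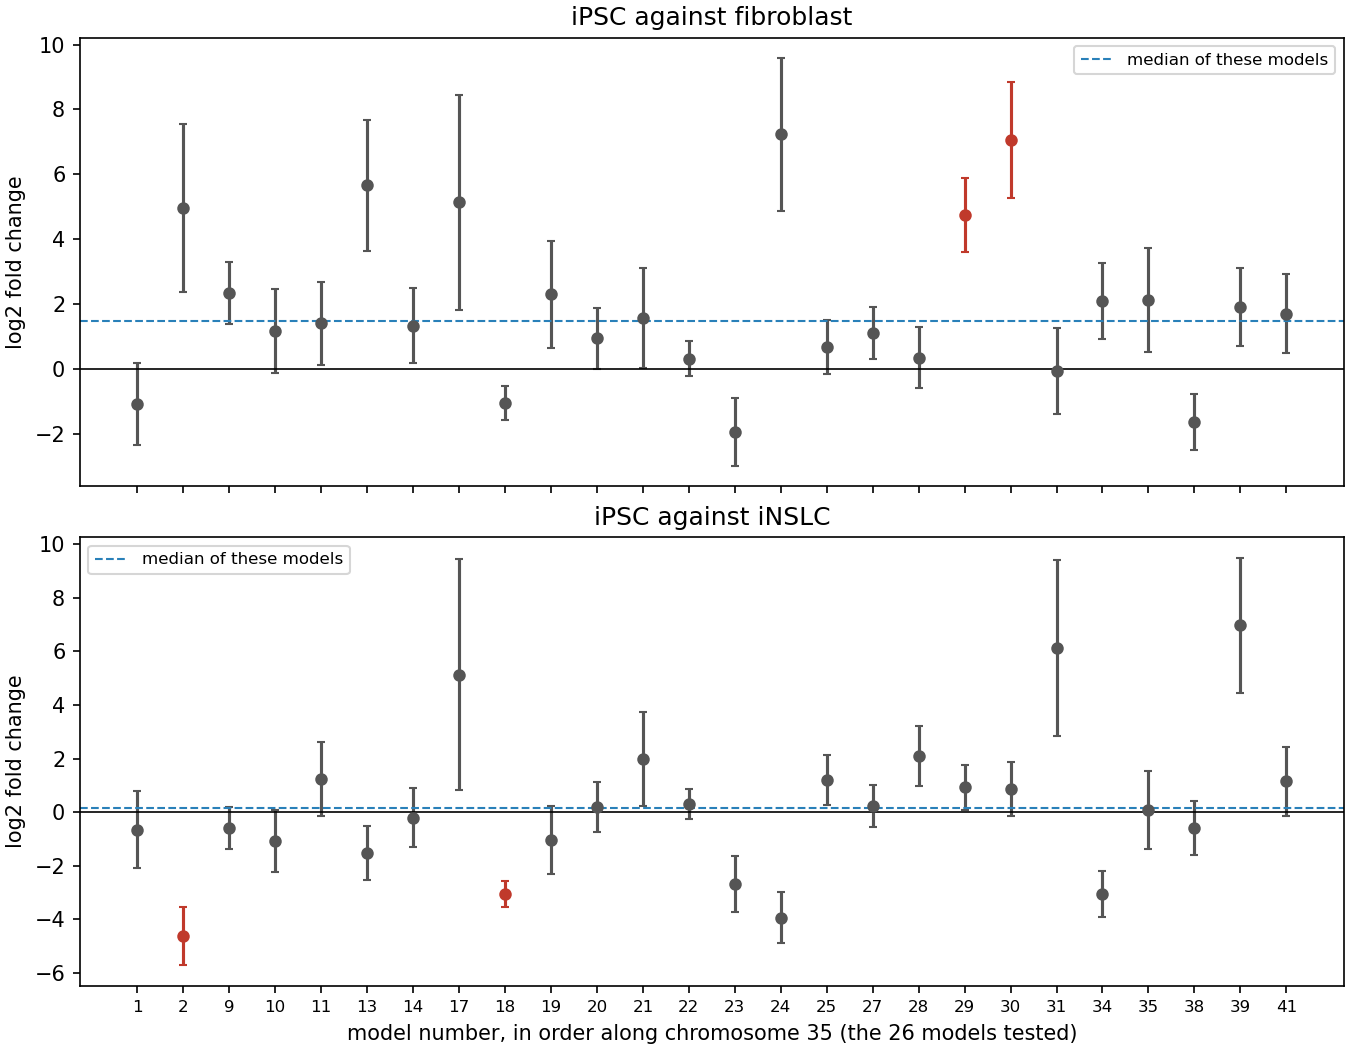
edgeR log2 fold changes of the 26 tested models with standard errors (bars), for iPSCs against fibroblasts (top) and against iNSLCs (bottom), in red where the adjusted p was under 0.05. The dashed lines are the medians, 1.49 and 0.15. Values above 4 come mostly from models with 0 counts in the compared library, whose fitted size is not a bound.

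The third comparison, of iNSLCs with fibroblasts, had 1 library on each side and no replicate check. Among models that reached 10 CPM in either library, a ratio of 4 or more was found for 2, both higher in iNSLCs (models 18 and 24), out of 2 that reached that level, with 0 lower, against 7.95% higher and 5.69% lower among 10237 genes. At a minimum of 1 CPM, 6 models were higher (2, 9, 10, 18, 24 and 34) and 0 lower out of 9, against 14.3% higher and 6.61% lower among 14190 genes. Models 18 and 24 reached 10 CPM in iNSLCs but not in fibroblasts. Likewise, models 2, 9, 10, 24 and 34 reached 1 CPM in iNSLCs but not in fibroblasts. A high iNSLC level was thus what let these models enter, so both counts are a description. Model 18 had 202 counts in iNSLCs and 112 in fibroblasts, a ratio of 4.03 (counting interval 3.18 to 5.12). Model 24 (ENSCAFG00000030570, chromosome 35, 24178933 to 24179313, plus strand) had 128 and 0 counts. With fibroblasts at the floor of 3 counts it was 95.3-fold higher in iNSLCs (76.4 or more by the exact interval of both counts). Model 34 had 65 counts in iNSLCs and 4 in fibroblasts (ratio 36.3, 13.5 to 137). Model 2, with 43 and 0 counts, was 32.0-fold higher against that floor (24.9 or more by the exact interval). Model 9 (408 bp), with 14 and 4 counts, had a ratio of 7.82 (2.46 to 32.6), and model 10, with 13 and 6 counts, had a ratio of 4.84 (1.72 to 15.5). The intervals of models 9, 10 and 18 all reach below the ratio of 4 that was counted. In the opposite direction model 28 had 7 counts in iNSLCs and 53 in fibroblasts, a ratio of 0.295 (0.113 to 0.651).

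Over all 5 libraries, iNSLCs were highest in 10 of the 26 tested models (2, 9, 10, 13, 14, 18, 19, 23, 24 and 34), against 18.5% of all genes tested. They were also highest in 60 of the 160 tested single-exon models of the same size range on other chromosomes. The count of 10 is thus not set apart from that of short single-exon models elsewhere. In models 13, 14 and 19 the highest place of iNSLCs rested on 8, 4 and 5 iNSLC counts. Model 14 was at 0.349 CPM in iNSLCs and 0.340 CPM in iPSC clone 1. As a high level in a single library was enough to pass the filter, the count of models is a description. All clones were above both other libraries in 8 (11, 21, 22, 25, 29, 30, 39 and 41), fibroblasts were highest in 2 (1 and 38), and the order was mixed in 6 (17, 20, 27, 28, 31 and 35). Outside the 10 of highest level, 1 CPM was passed by models 9 and 21. Model 9 (408 bp) had 0.773, 0.757 and 0.892 CPM in the iPSC clones, 1.22 CPM in iNSLCs and 0.156 CPM in fibroblasts. Model 21 (393 bp) had 0.247, 1.65 and 0.270 CPM in the clones, 0.174 CPM in iNSLCs and 0.234 CPM in fibroblasts, so that clone 2 stood far above the other 4 libraries.

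The tested models not described above had at most 27 counts in a library. Model 20 (312 bp) had 21, 10 and 26 counts in the iPSC clones, 6 in iNSLCs and 8 in fibroblasts. Model 11 (312 bp) had 8, 6 and 27 counts in the clones, 2 in iNSLCs and 4 in fibroblasts, and model 41 (393 bp) had 13, 5 and 20 in the clones, 2 in iNSLCs and 3 in fibroblasts. In CPM the clones were above fibroblasts in each of these models. Model 13 (393 bp) had 6, 6 and 10 counts in the clones, 8 in iNSLCs and 0 in fibroblasts, where its edgeR adjusted p was 0.083. Model 14 (381 bp) had 11, 6 and 11 counts in the clones, 4 in iNSLCs and 3 in fibroblasts, and model 19 (381 bp) had 7, 8 and 3 in the clones, 5 in iNSLCs and 1 in fibroblasts. At the shallower depth of the iNSLC library these counts put iNSLCs highest in all 3. Model 31 (381 bp) had 7, 2 and 25 counts in the clones, 0 in iNSLCs and 9 in fibroblasts, with the clones on both sides of fibroblasts. Model 35 (387 bp) had 5, 7 and 4 counts in the clones, 2 in iNSLCs and 1 in fibroblasts, and model 1 (447 bp) had 6, 10 and 2 in the clones, 4 in iNSLCs and 12 in fibroblasts. Neither of these passed a test.

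The 16 models that were not tested had 11 counts or fewer in any library. No count was found for 6 of them (4, 6, 7, 8, 33 and 36) in any of the 5 libraries, among them the divergent pair 6 and 7, and the other 10 had counts in at least 1 library. Model 16 (312 bp) had 6, 3 and 10 counts in the iPSC clones, 0 in iNSLCs and 4 in fibroblasts. Model 12 (408 bp) had 0, 3 and 10 counts in the clones and 0 in both other libraries, and model 15 (393 bp) had 0, 8 and 4 in the clones, 2 in iNSLCs and 0 in fibroblasts. The clones were thus not alike in models 12 and 15. Model 40 (312 bp) had 2, 6 and 11 counts in the iPSC clones and 0 in both other libraries, and model 42 (381 bp) had 8, 5 and 6 counts in the clones, 0 in iNSLCs and 7 in fibroblasts. Models 3, 5, 26, 32 and 37 had 7 counts or fewer in each library. Differences among these models were not detectable at this depth.

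Other sets of models give the scale for these counts. On the other chromosomes there were 526 single-exon models of 300 to 450 bp, of which 160 were tested. Against fibroblasts 13 of them were called higher and 8 lower in iPSCs, with a median log2 fold change of 0.42, and against iNSLCs 1 was higher and 18 lower, with a median of -0.25 (edgeR). Among the 342 other models of chromosome 35, 172 were tested. Of those, 24 were higher and 14 lower in iPSCs than in fibroblasts, and 3 higher and 11 lower than in iNSLCs. Within the stretch of the 38 grouped models lay 16 more single-exon models of other lengths, 11 of them tested. They summed to 64.5 ± 9.81 CPM (SD, n = 3) in the iPSC clones, 57.1 CPM in iNSLCs and 57.4 CPM in fibroblasts.

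The repeated lengths also occurred elsewhere. Of 51 single-exon models of 312, 378, 381, 393 or 408 bp on other chromosomes, 21 were tested, and iNSLCs were highest in 12 of them. Their sum was 92.4, 97.8 and 103 CPM in the iPSC clones, 241 CPM in iNSLCs and 94.4 CPM in fibroblasts, with 0.406 times the iNSLC sum in the clones. By length this ratio ran from 0.0379 (393 bp) to 0.844 (381 bp). Those of 393 bp summed to 104 CPM in iNSLCs and 2.07 CPM in fibroblasts, and those of 378 bp to 10.2 CPM in iNSLCs and 1.13 CPM in fibroblasts. Those of 381 bp summed to 75.5 CPM in iNSLCs and 43.0 CPM in fibroblasts. The classes of 312 bp (12.9 CPM in iNSLCs and 12.7 CPM in fibroblasts) and 408 bp (38.6 CPM in iNSLCs and 35.4 CPM in fibroblasts) were nearly even. No test of a difference between these sets and the models of chromosome 35 was made.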

How the data were processed

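RNA of 5 libraries from cells of 1 dog was sequenced. The deposited values are raw read counts per gene model, for which the submitters' processing notes name Trim Galore 0.4.0, STAR 2.5.3a, featureCounts 1.5.2 and the build CanFam3.1. These notes state no strand or multi-mapping setting, and the supplementary procedures of the study were not used here. The table of the whole series held the same counts as the per-library files. Ensembl IDs matched 0 of the 43286 rows of the RefSeq gene table (assembly UU_Cfam_GSD_1.0), so lists of pathway and marker genes were not analysed.

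Models were selected from exon coordinates and lengths. The models, groups and lists were chosen with earlier results of these data known. Counts were fitted in edgeR 4.0.16 (R 4.3.3; filterByExpr, TMM, quasi-likelihood test, Benjamini-Hochberg adjustment over 17479 genes) with all 5 libraries and 3 groups. The spread came from the iPSC clones, and the lone iNSLC and fibroblast libraries were assumed to vary like them. As the clones share a donor, p-values say nothing of the spread between dogs. CPM values are counts relative to the total of the tested genes times the TMM factor (0.770 for fibroblasts, 0.980 for iNSLCs, 1.08 to 1.12 for iPSCs). Ratios of single libraries have exact 95% counting intervals. Where a ratio or median is given at the floor, a library at 0 was set to 3 counts. In counting models and genes at least 4-fold apart, any library under 3 counts was set to 3. Named were the 10 models of highest mean CPM per kb and the models called, with at most 2 IDs per direction. The fit was tested on simulated data. DESeq2 1.42.0, limma-voom (limma 3.58.1), other scalings and filters, halved counts, other length windows and each clone left out were the alternatives.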

Additional observations from a re-analysis of the deposited data

How the results depend on the processing

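No paired analysis was possible, because the titles share only number 1 between groups, for the iNSLC library and iPSC clone 1. The fibroblast title has no number. No direction of a called model was reversed under any alternative run. Over the alternatives for the 4 called models in both tests, 92 values stayed on their side of the threshold and 9 lost a call. None of the 4 was called in both tests, so the 92 include values that had no call to lose.

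Against fibroblasts, 2 models were called. There was 1 with limma-voom (model 30), 4 at an adjusted p under 0.1, and 0 to 3 with a clone left out. Calls over all genes then ran from 2779 to 6906 around 4895. Against iNSLCs, 2 were called. There was 1 when scaled by library size alone and 1 in the largest positional group, 4 each with DESeq2, with limma-voom, without the filter and at an adjusted p under 0.1, and 0 to 5 with a clone left out. Over all genes, DESeq2 called 3480 against 1961, and 0 to 4159 were called with a clone left out. The count of 0 came without clone 3, where 2 of the models had an unadjusted p under 0.05 in edgeR.

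The median log2 fold change against fibroblasts (1.49) was 1.99 when scaled by library size, 1.69 with upper-quartile scaling (added after seeing the data), 1.20 with limma-voom, 1.63 without the filter, 1.32 with halved counts, 1.33 for lengths of 250 to 500 bp and 1.40 to 1.74 with a clone left out. Against iNSLCs (0.15) it was 0.0639 with DESeq2 factors, 0.31 with library size, -0.0669 with limma-voom, 0.25 without the filter, -0.10 for 250 to 500 bp and -0.23 to 0.12 with a clone left out, so its sign is not settled.

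The summed ratio of iPSCs to fibroblasts (1.35) was 1.93 with library size, 1.55 with upper-quartile scaling, 1.21 for 250 to 500 bp, 1.67 without model 18, 1.56 without models 18, 24, 34 and 2, and 1.38 to 1.42 with a clone left out. The ratio of iPSCs to iNSLCs (0.409) was 0.459 with library size, 0.448 for 250 to 500 bp, 0.437 in the largest group, 0.554 without model 18 and 1.22 without the 4 models, chosen after seeing the data, and 0.390 to 0.401 with a clone left out. The ratio of iNSLCs to fibroblasts (3.30) was 4.2 with library size, 3.77 with upper-quartile scaling, 2.69 for 250 to 500 bp and 1.28 without the 4 models. At 1 CPM, 6 models in place of 2 were 4-fold apart. The causes of these shifts were not tested, apart from which models enter the sums. The 16 untested models had too few counts for a test, and no library of iNSLCs or fibroblasts was replicated.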
